A study of Mus musculus with 8 samples.

Results

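The mitochondrial biogenesis regulators described here are 10 genes that were chosen by name, namely the coactivators *Ppargc1a*, *Ppargc1b* and *Pprc1*, the nuclear factors *Nrf1*, *Gabpa* and *Esrra*, and the mitochondrial transcription genes *Tfam*, *Tfb1m*, *Tfb2m* and *Polrmt*. They were all found among the 33641 genes of the deposited tables. *Nrf1* is nuclear respiratory factor 1 throughout. RNA-seq was done on interscapular brown adipose tissue (BAT) of C57BL/6 mice at 28 weeks of age. The question was which transcripts of BAT depend on HuR, the RNA-binding protein encoded by *Elavl1*. *Adipo-HuR-/-* mice combined floxed *Elavl1* alleles with an *Adipoq-cre* transgene, which directs the deletion to adipocytes, so the other cells of the tissue keep the gene. The controls are labelled wild-type, and the methods of the study describe such controls as littermates of the genotypes wt/wt-cre+, flox/flox-cre- or wt/flox-cre-, so that a control may itself carry the Cre transgene or floxed alleles.

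The labels name 3 control libraries (A7, A8 and A12) and 5 *Adipo-HuR-/-* libraries (A24, A25, A26, A29 and A31). A legend in the study gives the group sizes the other way round, and the labels were followed here. The study reports reduced expression of calcium cycling genes such as *Atp2a1* and *Ryr1* in *Adipo-HuR-/-* mice. By the labels, 14 of 14 skeletal muscle markers had a log2 fold change below 0 in the knockouts here. These markers include none of the calcium cycling genes that the study names, and their summed level was highest in A7 and A8. Whether the labels or the legend are reversed was not tested. Nothing in the labels beyond these numbers says that each library came from a separate mouse, so the tests measure the spread between libraries. The control libraries held 60622522 (A7), 51751002 (A8) and 50673814 (A12) estimated counts. The *Adipo-HuR-/-* libraries held 18264754 (A24), 17558090 (A25), 67498055 (A26), 50893173 (A29) and 58727739 (A31). A24 and A25 were therefore the shallowest libraries, and the lowest count of any of the 10 genes in any library was 116, for *Tfb1m* in A25.

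*Elavl1*, the targeted gene (chr8:4285382-4325413, minus strand, GRCm38), was read first. Its CPM, the count divided by the library total after TMM scaling, was 50.6 (A7), 48.0 (A8) and 49.2 (A12) for the controls. The labelled knockouts gave 61.9 (A24), 47.3 (A25), 43.4 (A26), 61.3 (A29) and 61.2 (A31). These ranges overlapped and the labelled knockouts were not lower, with a log2 fold change of 0.16 (SE 0.16, adjusted p = 0.667, edgeR quasi-likelihood test). The sum covers every exon and every cell type of the tissue, and so does not isolate the floxed segment in adipocytes. The labels are therefore not checked by this gene, and each group below stands for the libraries labelled as such.

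The tissue label was read against fixed marker lists. All 10 brown adipocyte markers were present in each of the 8 libraries, with a summed level between 16634 CPM (A25) and 34847 CPM (A8) and *Fabp4* as the most abundant gene in 6 libraries and *Ucp1* in A12 and A31. *Ucp1*, the uncoupling protein of brown adipocytes, was at 4843 (A7), 11438 (A8) and 9483 (A12) CPM in the control libraries. It was at 10703 (A24), 4251 (A25), 7636 (A26), 7213 (A29) and 9475 (A31) CPM in the labelled knockouts, a log2 fold change of -0.13 (SE 0.35, adjusted p = 0.889). The groups overlapped for *Ucp1*.

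Skeletal muscle RNA set some libraries apart. Summed over 14 muscle markers, A7 reached 3475, A8 2286 and A31 379 CPM, against 21.7 to 54.1 CPM in the other 5 libraries. *Myh4*, the most abundant of them in A7, A8 and A31, was at 0 in A25, A26 and A29. Of the 14 muscle markers, 3 passed the threshold, lower in the labelled knockouts, against 0.707% of all genes tested in both directions. All 14 had a log2 fold change below 0, with a median of -4.68. At an unadjusted p of at most 0.05 in edgeR there were 11 of the 14, against 17.0% of all genes tested. Macrophage and lymphocyte markers summed to 9.62 (A8) to 29.2 CPM (A12), endothelial markers to 314 (A24) to 556 CPM (A29) and white adipocyte markers to 25.8 (A26) to 79.7 CPM (A7), with *Csf1r*, *Cdh5* and *Lep* as their most abundant genes over all libraries together, although *Kdr* or *Pecam1* led the endothelial list in 5 libraries and *Retn* the white adipocyte list in 5. None of the tested markers of these 3 lists passed the threshold, and *Hoxc9* and *Tcf21* were not tested. The regulators were also fitted with the muscle marker level as a covariate and without those libraries, and in bulk tissue fewer cells of a type and less RNA per cell cannot be told apart.

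Mitochondrial biogenesis couples the nuclear and the mitochondrial genome. Coactivators of the PGC-1 family bind nuclear factors such as NRF-1, GABP and ERRα, which act on nuclear genes of respiration and of mitochondrial DNA upkeep. Among these are the genes of the machinery that transcribes mitochondrial DNA, and in brown fat the PGC-1 program accompanies thermogenic activation.

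None of the 10 regulators passed the threshold of the comparison, an adjusted p of at most 0.05 in edgeR's quasi-likelihood test with a fold change of at least 1.5. Over the 14851 genes tested, 105 passed, which is 0.707%, with 36 higher and 69 lower in the libraries labelled *Adipo-HuR-/-*. At an unadjusted p of at most 0.05 there were 2 of the 10 regulators, *Nrf1* and *Polrmt*, against 17.0% of all genes tested. Scaling by total counts alone gave 5 regulators at that limit and limma voom gave 4, while the 17.0% belongs to the main fit. The share of all genes at that limit was not counted for these other fits, so their numbers cannot be set against it. For *Nrf1* and *Polrmt* every library labelled *Adipo-HuR-/-* lay above every control library, and 5.37% of all genes tested showed that arrangement. DESeq2 and edgeR's likelihood ratio test each put 1 regulator, *Nrf1*, past the threshold, where they put 823 (5.54%) and 655 (4.41%) of all genes tested past it. With limma voom none of the regulators and 157 (1.06%) of all genes passed.

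Of the 10 regulators, 6 had a log2 fold change above 0, against 50.08% of all genes tested. The median of the regulators was 0.19 against 0.001 over all genes tested. Scaling by total counts alone moved the median over all genes to 0.23 and that of the regulators to 0.39, with 9 regulators above 0. It changed the split of calls to 96 higher and 25 lower. The count of 105 changed when single libraries were left out. It was 13 without A7, 145 without A8, 190 without A12, 86 without A24, 15 without A25, 10 without A26, 14 without A29 and 17 without A31, and none of these fits called a regulator.

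**Figure D1:**
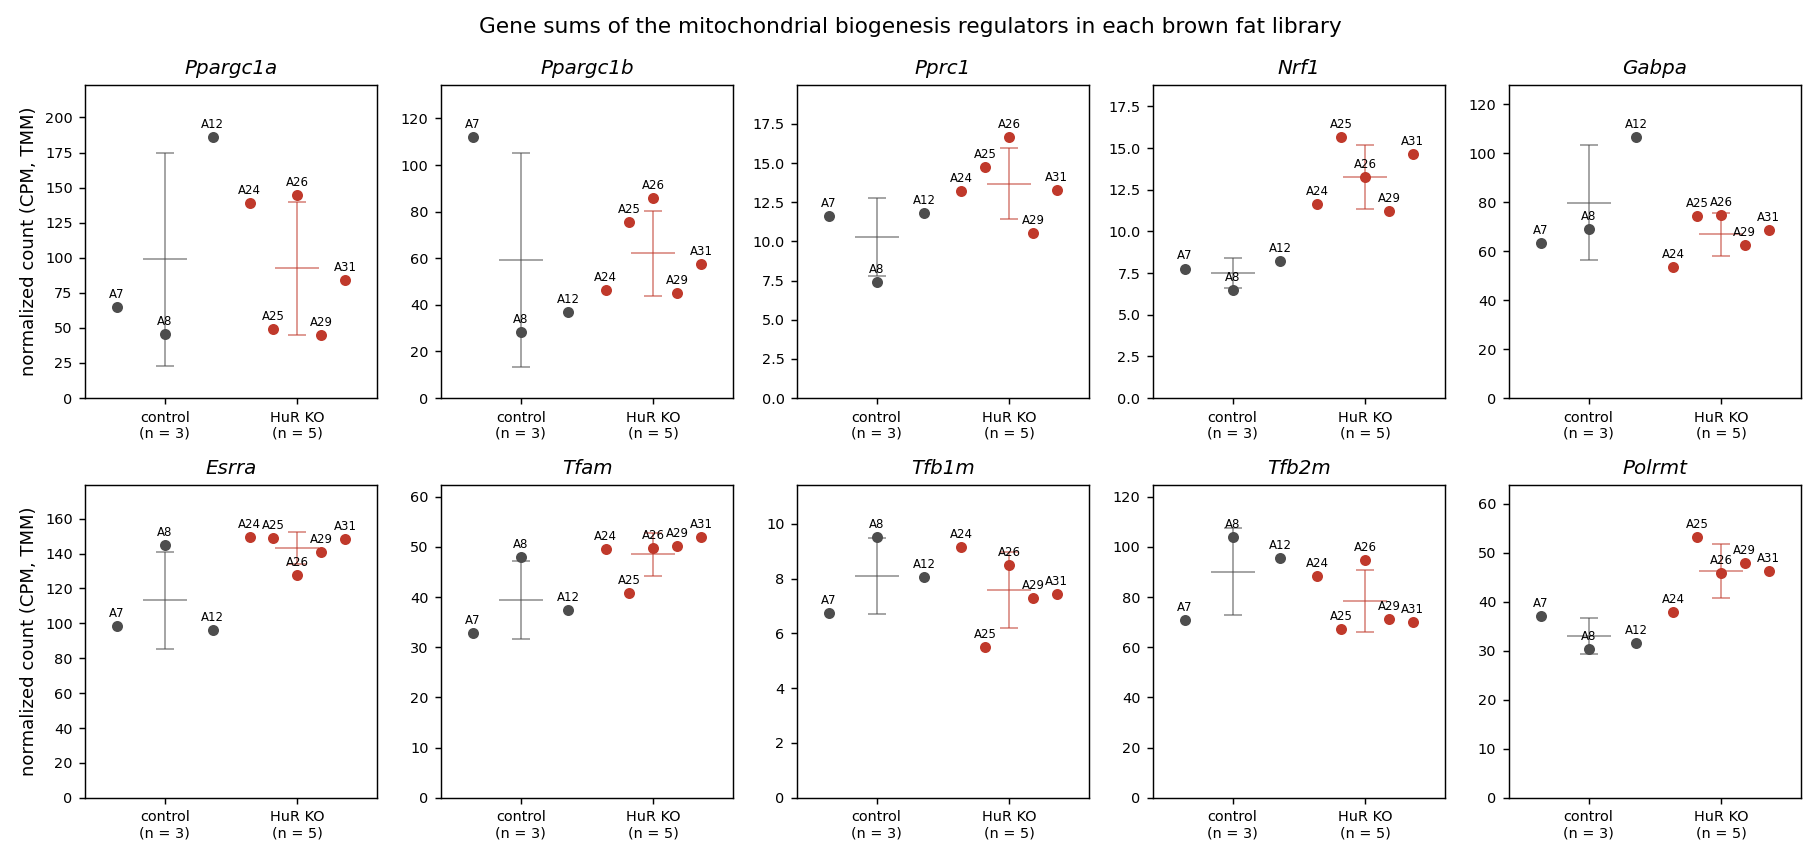
Each panel plots 1 regulator, with the normalized count in CPM (TMM scaling) on a linear axis from 0 and every library as a labelled point, and the bars show mean ± SD for 3 control and 5 labelled knockout libraries. For *Nrf1* the control libraries reach 8.21 CPM and the labelled knockouts start at 11.2 CPM, and for *Polrmt* these values are 37.2 and 38.0 CPM, while the groups overlap in the other 8 panels.

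*Ppargc1a* (chr5:51454250-51567726, minus strand) encodes PGC-1α, the coactivator that is induced when brown fat is stimulated by cold. Control values were 65.2 (A7), 45.7 (A8) and 186 CPM (A12). Those of the labelled knockouts were 139 (A24), 49.5 (A25), 145 (A26), 45.0 (A29) and 84.0 CPM (A31). Both groups held high and low libraries, A12, A24 and A26 being high. The ranges overlapped, although the control A12 lay above every labelled knockout. With all libraries *Ppargc1a* had a log2 fold change of -0.10 (SE 0.51, adjusted p = 0.942, edgeR). Its sign turned without A12 (0.74), A25 (0.06) or A29 (0.08) and with total counts alone (0.06), so no direction can be given. The muscle covariate gave -0.53 (SE 0.48), and without A7, A8 and A31 it was -0.98 (SE 0.59), from A12 as the lone control.

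*Ppargc1b* (chr18:61298136-61400431, minus strand) encodes the related coactivator PGC-1β. The control libraries gave 112 (A7), 28.4 (A8) and 37.0 CPM (A12), so that A7, the library with the most muscle marker RNA, stood far above the other controls. The libraries labelled *Adipo-HuR-/-* gave 46.5 (A24), 75.7 (A25), 86.0 (A26), 44.9 (A29) and 57.3 CPM (A31). With all libraries the log2 fold change was 0.07 (SE 0.41, adjusted p = 0.949). Without A7 the log2 fold change was 0.92, still with an adjusted p of 0.214 in edgeR. It turned to -0.26 without A8, -0.18 without A12, -0.01 without A25 and -0.08 without A26. The muscle covariate gave 0.50 (SE 0.57), and the fit without A7, A8 and A31 gave 0.77 (SE 0.41), from A12 as the lone control.

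*Pprc1* (chr19:46044886-46072915, plus strand), which encodes the PGC-1-related coactivator PRC, was less variable. It was at 11.6 (A7), 7.42 (A8) and 11.8 CPM (A12) in control libraries. It was at 13.2 (A24), 14.8 (A25), 16.7 (A26), 10.5 (A29) and 13.3 CPM (A31) in the others. All labelled knockouts but A29 lay above the highest control. For *Pprc1* the log2 fold change was 0.41 (SE 0.21, adjusted p = 0.349), and it was 0.23 without A8, the lowest control.

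*Nrf1* (chr6:30047988-30153458, plus strand), the transcription factor that binds many promoters of respiratory chain genes, differed most by unadjusted p among the 10. Its values were 7.77 (A7), 6.48 (A8) and 8.21 CPM (A12) in the control libraries. They were 11.6 (A24), 15.7 (A25), 13.3 (A26), 11.2 (A29) and 14.6 CPM (A31) in the libraries labelled *Adipo-HuR-/-*. The groups did not overlap. The log2 fold change was 0.83 (SE 0.17), a fold of 1.77, with an unadjusted p of 0.000702, which ranks 167 among all genes tested, and an adjusted p of 0.0624 in edgeR's test. The adjusted p was 0.000596 with DESeq2, 0.00982 with the likelihood ratio test and 0.0755 with limma voom, and over the alternatives it ran from 0.000596 to 0.396. With the muscle covariate the log2 fold change was 0.81 (SE 0.23, adjusted p = 0.267), and without A7, A8 and A31 it was 0.65 (SE 0.30). The study names *nrf1* as the exception among traditional thermogenesis genes, which it otherwise found unchanged in BAT of *Adipo-HuR-/-* mice. It used CLC Genomics Workbench, and its text gives no value, direction or full gene name for *nrf1*.

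*Gabpa* (chr16:84834925-84863779, plus strand) encodes the DNA-binding subunit of GABP, also called NRF-2. Control values were 63.3 (A7), 69.1 (A8) and 107 CPM (A12), and A12 alone was high. The values in the labelled knockouts were 53.6 (A24), 74.2 (A25), 74.9 (A26), 62.7 (A29) and 68.7 CPM (A31), and the groups overlapped. *Gabpa* had a log2 fold change of -0.25 (SE 0.20, adjusted p = 0.562). It was 0.01 without A12 and -0.02 with total counts alone. The muscle covariate gave -0.46 (SE 0.21) and the transcript with the highest count -0.56 (SE 0.21). Without A7, A8 and A31 it was -0.68 (SE 0.26), from A12 as the lone control.

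*Esrra* (chr19:6910977-6921813, minus strand) encodes the orphan nuclear receptor ERRα, a partner of the PGC-1 coactivators. It was at 98.2 (A7), 145 (A8) and 96.2 CPM (A12) in control libraries. In the libraries labelled *Adipo-HuR-/-* it stayed between 127 CPM (A26) and 150 CPM (A24), with 149 in A25, 141 in A29 and 148 in A31. Only A8 among the controls reached the range of the labelled knockouts. The log2 fold change was 0.34 (SE 0.17, adjusted p = 0.354), and without A8 it was 0.56 with an adjusted p of 0.0963, the lowest over the alternatives. With total counts alone it was 0.61 (adjusted p = 0.0978), while it was 0.24 without A7 (adjusted p = 0.598) and 0.23 without A12 (adjusted p = 0.690).

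*Polrmt* (chr10:79736123-79746581, minus strand) encodes the RNA polymerase of mitochondria. It was at 37.2 (A7), 30.3 (A8) and 31.6 CPM (A12) in the control libraries. It was at 38.0 (A24), 53.3 (A25), 45.9 (A26), 47.9 (A29) and 46.4 CPM (A31) in the libraries labelled *Adipo-HuR-/-*. The groups did not overlap, although A24 lay just above A7. The log2 fold change was 0.49 (SE 0.15), a fold of 1.40 that is below the limit of 1.5, with an unadjusted p of 0.00888 and an adjusted p of 0.138. Its adjusted p was 0.0365 with DESeq2, 0.148 with the likelihood ratio test and 0.120 with limma voom. Each fit that left out 1 library kept it between 0.43 and 0.58, and the muscle covariate gave 0.53 (SE 0.21).

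*Tfam* (chr10:71225464-71238280, minus strand) encodes the factor that packages mitochondrial DNA and starts its transcription. The control libraries gave 32.8 (A7), 47.9 (A8) and 37.4 CPM (A12). The libraries labelled *Adipo-HuR-/-* gave 49.6 (A24), 40.9 (A25), 49.9 (A26), 50.2 (A29) and 52.0 CPM (A31). On this scale the control A8 lay high and A25 lay low among the labelled knockouts, whereas by TPM, which has no TMM factor, A8 was the lowest (22.1) and A25 the highest (39.3) of the 8 libraries. The log2 fold change was 0.30 (SE 0.16, adjusted p = 0.372), with 0.47 without A8 and 0.18 without A7. With total counts alone it was 0.55 (SE 0.15, adjusted p = 0.0953 in edgeR).

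*Tfb2m* (chr1:179528055-179546267, minus strand) encodes the factor that works with TFAM and POLRMT when transcription of mitochondrial DNA starts. Its range was 70.8 (A7) to 104 CPM (A8) in controls and 67.4 (A25) to 94.8 CPM (A26) in the labelled knockouts, with a log2 fold change of -0.20 (SE 0.18, adjusted p = 0.621) that was -0.08 without A8 and -0.35 without A7. *Tfb1m* (chr17:3519256-3557781, minus strand) encodes a methyltransferase of mitochondrial ribosomal RNA. Its range was 6.75 (A7) to 9.52 CPM (A8) in controls and 5.50 (A25) to 9.14 CPM (A24) in the labelled knockouts, with a log2 fold change of -0.10 (SE 0.20, adjusted p = 0.851). The groups overlapped for both, and total counts alone turned both signs, to 0.04 for *Tfb2m* and 0.14 for *Tfb1m*. *Tfb1m* also turned to 0.04 without A8.

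**Figure D2:**
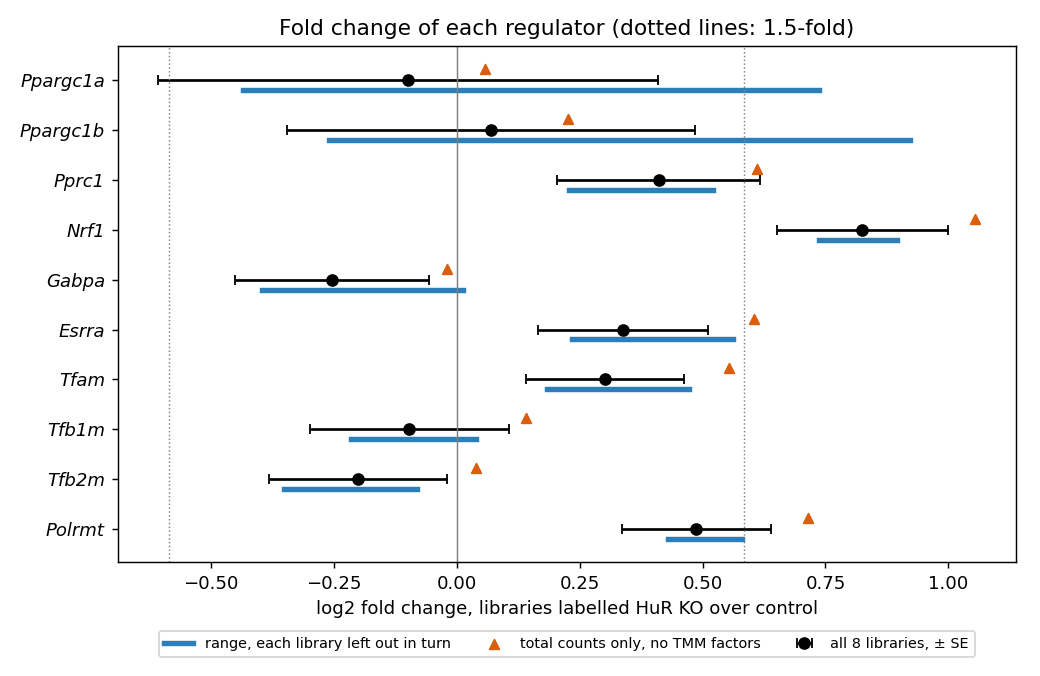
Points give the log2 fold change of each regulator (libraries labelled HuR KO over control, all 8 libraries) with its SE, blue bars the range when each library is left out in turn and triangles the value with total counts alone. *Nrf1* stays between 0.74 and 0.90 when libraries are left out, whereas *Ppargc1a* ranges from -0.44 to 0.74 and *Ppargc1b* from -0.26 to 0.92.

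Levels of different genes were compared per transcript length, on the TPM scale (counts divided by transcript length and scaled to the same total in each library, without TMM). *Esrra* had the highest median TPM over the 8 libraries, 83.3, followed by *Tfb2m* (55.3), *Gabpa* (39.1), *Tfam* (31.7), *Ppargc1a* (30.3), *Polrmt* (27.7), *Ppargc1b* (20.7), *Tfb1m* (7.74), *Nrf1* (7.01) and *Pprc1* (4.13). The ranges over libraries overlapped for every pair of neighbours in that order. *Ppargc1b* lay above *Tfb1m*, and *Nrf1* above *Pprc1*, in 8 of 8 libraries, whereas *Ppargc1a* lay above *Polrmt* in 4. *Esrra* was above 93.5% and *Pprc1* above 46.3% of all genes tested by median TPM.

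On the TPM scale *Nrf1* ran from 2.58 (A8) to 5.94 (A7) in controls and from 6.59 (A24) to 14.6 (A25) in the labelled knockouts. *Polrmt* ran from 17.1 (A8) to 21.3 (A7) and from 26.1 (A26) to 37.2 (A25). *Esrra* ran from 61.4 (A8) to 77.1 (A7) and from 83.1 (A24) to 125 (A25). On that scale, which was not tested, the labelled knockouts of these 3 genes lay above all controls, as they did for 6.69% of all genes tested, while 1.03% lay below. *Ppargc1a* differed most between libraries, its highest CPM being 4.13 times its lowest, and *Tfb2m* least, at 1.54 times.

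The counts were then read per transcript. The tables list 74 transcripts of the 10 genes, of which 71 had a count above 0 in some library and 50 passed the filter on low counts. None of these 50 passed the threshold, against 4 of 41808 transcripts tested or 0.00957%. Of the 50, 32 (64.0%) were higher and 18 lower in the libraries labelled *Adipo-HuR-/-*, against 51.3% higher among all transcripts tested. How the estimated counts divide between transcripts that share exons is less certain than the gene sums.

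Leading transcripts of *Nrf1* and *Polrmt* took an uneven part of the sums. The *Nrf1* transcript with the most counts, ENSMUST00000115211.7, a coding transcript of 12 exons, held 44.1% (A7), 45.5% (A8) and 33.8% (A12) of the gene's count in controls. It held 26.7% (A24), 38.5% (A25), 27.2% (A26), 42.3% (A29) and 41.8% (A31) in the labelled knockouts, and its own log2 fold change was 0.57 (SE 0.32, adjusted p = 0.738). ENSMUST00000123194.7, annotated as coding with 6 exons and spanning chr6:30047991-30098575, was at or near 0 in the controls, with at most 0.717% of the gene's count (A8), and reached 6.29% in A31. The shares of both transcripts overlapped between the groups. By CPM, ENSMUST00000123194.7 reached at most 0.0531 (A8) in controls and ran from 0.0555 (A24) to 0.934 (A31) in the labelled knockouts. A24 thus lay just above A8. The log2 fold change of this transcript was 4.88 (SE 1.36, adjusted p = 0.404 in edgeR), over controls at or near 0. For *Polrmt* the leading transcript ENSMUST00000020580.12 of 21 exons held 48.7% (A24) to 81.9% (A7), and its log2 fold change of 0.29 (SE 0.27, adjusted p = 0.901) was smaller than that of the gene sum.

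*Ppargc1a* has annotated starts about 14 kb apart. Transcripts from the upstream start, with 5′ ends at 51567704 and 51567726, held 6.57% (A7), 0.92% (A8) and 4.80% (A12) of the gene's count in controls. They held 0.53% (A24), 1.43% (A25), 6.25% (A26), 4.85% (A29) and 7.44% (A31) in the labelled knockouts. The downstream start thus carried over 92% of the count in every library, and the groups overlapped. Transcripts annotated as targets of nonsense-mediated decay held between 12.3% (A8) and 41.1% (A25), again with overlap. *Esrra*, *Ppargc1b*, *Tfb2m* and *Tfam* were each led by a single coding transcript with 97.8%, 97.8%, 94.9% and 81.2% of the pooled count, and *Tfb1m* has only 1 transcript in the tables.

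**Figure D3:**
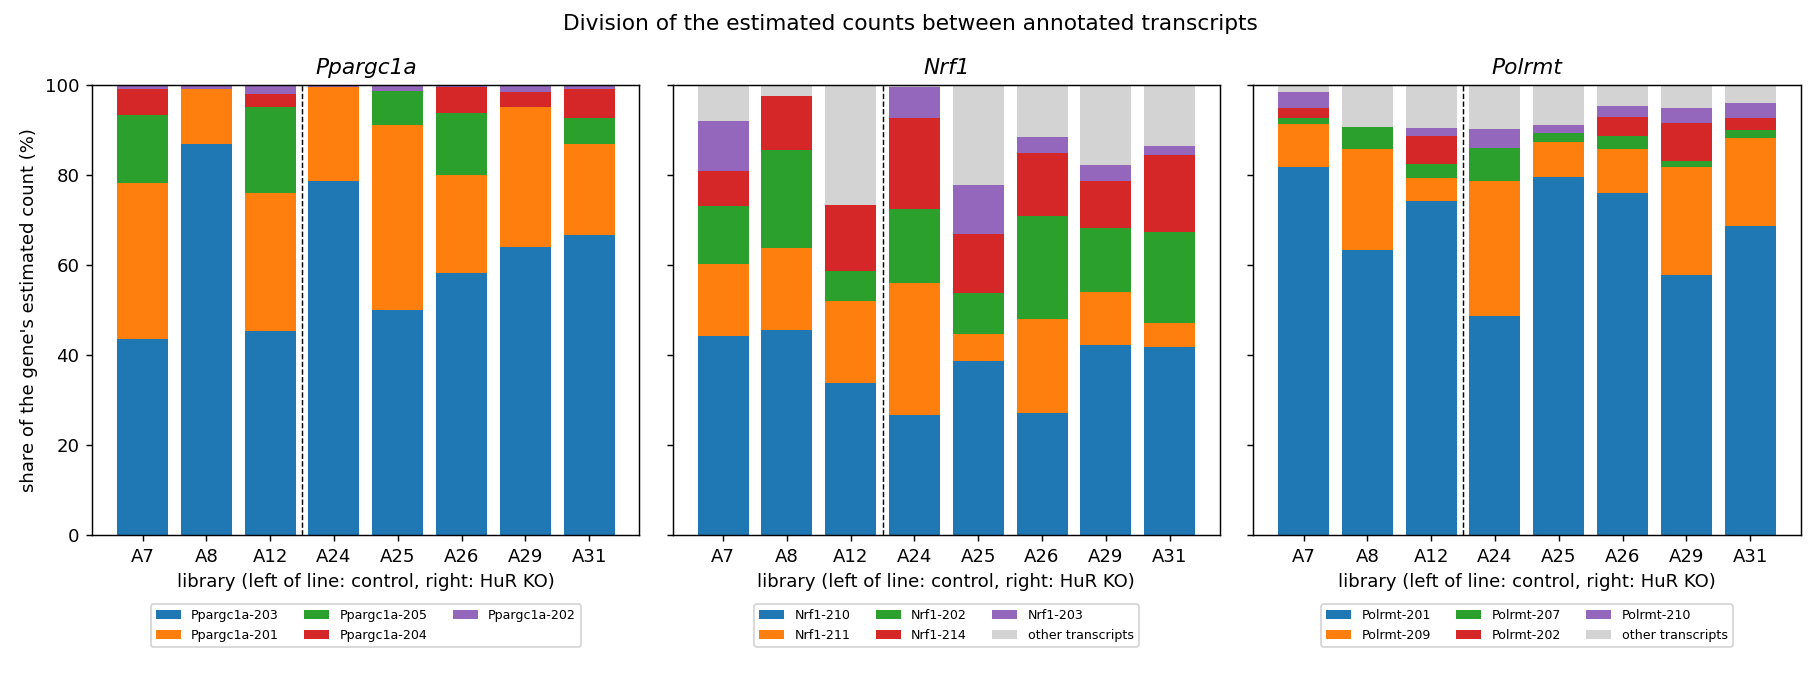
Stacked bars give the share in percent of the gene's estimated count held in each library by the leading annotated transcripts of *Ppargc1a*, *Nrf1* and *Polrmt*, the rest pooled in gray, with control libraries left of the dashed line. The shares differ as much between libraries of 1 group as between the groups, as for the leading *Ppargc1a* transcript, with 43.6% in A7 and 86.8% in A8.

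Some counts may be shared with other loci, since the counting is not stated to use strand. *Gabpa* shares 397 exon bases with *Atp5j* on the other strand, *Pprc1* shares 177 with *Ldb1*, *Tfb1m* shares 142 with *Tiam2* and *Esrra* shares 73 with *Trmt112*. For *Tfb2m*, 36.4% of the 31-base words of its transcripts also occur in transcripts of other genes, mostly of the pseudogene *Gm1818*. *Tfb1m* shares 10.1%, *Gabpa* 5.51% and *Polrmt* none of its words.

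Regulators that ran together over the 8 libraries were sought as a description. The correlation of log2 CPM was highest for *Nrf1* with *Polrmt* (Pearson r = 0.90, n = 8 libraries), then *Tfb1m* with *Tfb2m* (r = 0.85) and *Esrra* with *Tfam* (r = 0.81), among 45 pairs. *Tfb2m* and *Polrmt* ran opposite to each other (r = -0.72). All these points share their library, its depth and its scaling factor, and they hold the group difference itself.

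Among all genes tested, the gene closest to *Nrf1* was *Npr1*, a natriuretic peptide receptor (r = 0.99, n = 8 libraries). *Npr1* was at 33.9 (A7), 21.8 (A8) and 35.2 CPM (A12) in controls. It was at 69.7 (A24), 101 (A25), 86.1 (A26), 55.0 (A29) and 87.1 CPM (A31) in the labelled knockouts. Its log2 fold change of 1.40 (adjusted p = 0.0393 in edgeR) passed the threshold, as did 105 of the 14851 genes tested. *Npr1* was picked for its correlation with *Nrf1*, whose groups were apart, so a group difference in *Npr1* follows in part from that choice. The closest genes to the others were *Serpina3c* for *Ppargc1a*, *Hist1h1e* for *Ppargc1b*, *Ctbp2* for *Pprc1*, *Ikzf5* for *Gabpa*, *Exosc3* for *Esrra*, *1810014B01Rik* for *Tfam*, *Sec22a* for *Tfb1m*, *Stard7* for *Tfb2m* and *Usp48* for *Polrmt*, with r from 0.97 to 0.99. None of these 9 passed the threshold. Like *Npr1*, each is the highest of the correlations with all other genes tested, on only 8 points.

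Other genes that transcribe, copy and maintain mitochondrial DNA were read as a list of 18, all tested, of which none passed the threshold. Their median log2 fold change was 0.06, against 0.001 over all genes tested. The lowest unadjusted p belonged to *Top1mt*, the mitochondrial topoisomerase, with 17.8 (A7), 16.4 (A8) and 15.1 CPM (A12) against 12.5 (A24), 11.4 (A25), 12.4 (A26), 10.2 (A29) and 11.5 CPM (A31). Every labelled knockout was below every control, as for 904 of the 14851 genes tested, and the log2 fold change was -0.50 (SE 0.14, adjusted p = 0.106). *Primpol*, a primase-polymerase, was likewise apart with -0.85 (SE 0.26, adjusted p = 0.133), and *Polg2*, the accessory subunit of the mitochondrial DNA polymerase, was apart in the other direction, as were 797 of all genes tested, with 0.76 (SE 0.26, adjusted p = 0.166). In all, 2 of the 18 were below and 1 above.

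None of 25 partners and upstream regulators of the PGC-1 coactivators, NRF-1, GABP and ERRα passed, with a median of -0.12. The labelled knockouts lay above all controls for 2 of the 25, *Mapk14* and *Gabpb1*, and below for 2, *Mef2a* and *Atf2*, against 797 above and 904 below among the 14851 genes tested. *Mapk14*, the p38 kinase that phosphorylates PGC-1α, was at 54.5 (A12) to 68.4 CPM (A7) in controls and 72.4 (A29) to 113 CPM (A26) in the labelled knockouts, a log2 fold change of 0.54 (SE 0.18, adjusted p = 0.158). *Mef2a* (log2 fold change -0.49, SE 0.17, adjusted p = 0.186) and *Atf2* (-0.45, SE 0.17, adjusted p = 0.204) are transcription factors that act on the *Ppargc1a* promoter. *Gabpb1*, which encodes the partner subunit of GABPA, had 0.32 (SE 0.19, adjusted p = 0.414).

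Of 18 nuclear genes described as targets of NRF-1 or GABP, none passed and the median was 0.06. *Alas1*, the first enzyme of heme synthesis, had a log2 fold change of 0.71 (SE 0.27, adjusted p = 0.217), with 141 (A12) to 375 CPM (A7) in controls and 371 (A24) to 440 CPM (A26) in the labelled knockouts. *Cyc1*, cytochrome c1 of complex III, had 0.50 (SE 0.21, adjusted p = 0.272), and *Cycs*, the somatic cytochrome c, had -0.49 (SE 0.28, adjusted p = 0.400). The groups overlapped for these 3 genes.

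The products of POLRMT were read as the 13 protein-coding genes of mitochondrial DNA. None passed the threshold. A log2 fold change below 0 was found for 12 of the 13, against 7413 of the 14851 genes tested, and the median of the 13 was -0.36. These values are with TMM scaling, and total counts alone moved the median over all genes from 0.001 to 0.23. Together they took 17.3% (A7), 33.1% (A8) and 27.2% (A12) of all counts in controls. They took 21.6% (A24), 14.3% (A25), 25.7% (A26), 26.5% (A29) and 22.5% (A31) in the labelled knockouts, so that the groups overlapped and A25 and A7 were lowest. *mt-Atp8* had a log2 fold change of -1.73 (SE 0.45, adjusted p = 0.0978), with 2498 (A7) to 8283 CPM (A8) in controls and 654 (A25) to 2902 CPM (A29) in the labelled knockouts, so that the groups overlapped, followed by *mt-Co3* with -0.78 (SE 0.39, adjusted p = 0.349) and *mt-Atp6* with -1.07 (SE 0.55, adjusted p = 0.356). *mt-Atp8* and *mt-Atp6* overlap in the mitochondrial genome.

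HuR binds U-rich and AU-rich elements, so the pentamer ATTTA was counted in the 3′UTR of each gene's leading coding transcript. *Ppargc1a* and *Gabpa* each held 9, in UTRs of 3930 and 3176 bases, more than 92.4% of the tested genes. The median 3′UTR of tested genes was 994 bases, and longer UTRs can hold more pentamers. Per kb, *Tfb2m* (3.565) and *Tfb1m* (3.378) held more than *Gabpa* (2.834) and *Ppargc1a* (2.29). *Tfam* held 6, *Tfb2m* 4, *Nrf1* 2, *Esrra* 1 and *Tfb1m* 1, while *Ppargc1b*, *Pprc1* and *Polrmt* held none. At least 1 was present in 7 of the 10 regulators (70.0%), against 66.0% of 14010 tested genes with a 3′UTR. A pentamer is a description of the sequence, and binding was not measured here.

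Promoter sequences (RefSeq, GRCm38.p6, 250 bases before to 50 after the start) matched 9 of the 10 regulators, with 10 windows. *Ppargc1b* was the one without a match. The letters of 5 binding motifs were searched on both strands, with the share of 32851 promoters that hold them. The NRF-1 letters GCGCANGCG were in 6.25%, the GABP letters CCGGAAG in 8.86%, the ERR letters AAGGTCA in 4.72%, the CRE letters TGACGTCA in 1.79% and the YY1 letters AAGATGGCG in 1.40%. Among 13941 promoters of tested genes, NRF-1 letters were in 1673 and GABP letters in 2192. NRF-1 letters were found in *Polrmt*, *Tfb2m* and *Esrra*, GABP letters in *Polrmt*, *Tfam* and *Gabpa*, YY1 letters in *Gabpa*, and neither ERR nor CRE letters in any of the 10 windows. The *Ppargc1a* window (chr5:51567676-51567975) lies at the upstream start, and the downstream start that carried most of its count was not searched.

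The promoters of *Nrf1* and *Polrmt* are shown because these genes ran together and were apart between the groups, and those of *Tfb2m* and *Esrra* because they hold the same NRF-1 letters. The windows are chr6:30047738-30048037 (plus strand), chr10:79746532-79746831, chr1:179546227-179546526 and chr19:6921759-6922058 (all minus strand), and capitals mark NRF-1 or GABP letters in either orientation.
Nrf1: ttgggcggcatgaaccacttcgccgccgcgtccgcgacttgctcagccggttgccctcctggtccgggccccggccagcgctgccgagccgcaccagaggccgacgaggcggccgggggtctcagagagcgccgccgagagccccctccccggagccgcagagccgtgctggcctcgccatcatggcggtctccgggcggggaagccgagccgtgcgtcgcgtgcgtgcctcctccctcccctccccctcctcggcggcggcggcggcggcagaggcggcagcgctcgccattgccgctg
Polrmt: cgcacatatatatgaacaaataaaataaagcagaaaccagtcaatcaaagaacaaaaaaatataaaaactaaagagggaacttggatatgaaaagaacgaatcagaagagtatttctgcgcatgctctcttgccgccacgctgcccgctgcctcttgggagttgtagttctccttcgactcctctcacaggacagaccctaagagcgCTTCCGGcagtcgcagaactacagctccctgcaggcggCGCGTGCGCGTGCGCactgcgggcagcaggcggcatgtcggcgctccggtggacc
Tfb2m: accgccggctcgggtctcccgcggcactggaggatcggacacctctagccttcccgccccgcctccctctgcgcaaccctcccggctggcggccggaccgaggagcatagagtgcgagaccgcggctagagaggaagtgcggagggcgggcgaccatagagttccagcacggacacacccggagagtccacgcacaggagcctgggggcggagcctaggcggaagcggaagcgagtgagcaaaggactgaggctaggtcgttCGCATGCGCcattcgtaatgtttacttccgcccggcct
Esrra: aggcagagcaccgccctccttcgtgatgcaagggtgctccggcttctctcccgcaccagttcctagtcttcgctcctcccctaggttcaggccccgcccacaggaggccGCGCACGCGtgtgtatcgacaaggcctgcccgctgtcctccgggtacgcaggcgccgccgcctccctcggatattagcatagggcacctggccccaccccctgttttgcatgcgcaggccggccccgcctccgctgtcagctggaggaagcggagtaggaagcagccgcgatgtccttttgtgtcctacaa
In *Polrmt* the NRF-1 letters occur as 2 overlapping matches at chr10:79746578-79746586 and chr10:79746572-79746580, around the start, beside GABP letters at chr10:79746618-79746624. In *Tfb2m* they lie just after the start, at chr1:179546256-179546264, and in *Esrra* at chr19:6921941-6921949. The *Nrf1* window holds none of the searched letters, and so does its window at chr6:30076071-30076370.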

How the data were processed

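RNA was read as poly(A) libraries from BAT, and the authors deposited, per transcript, estimated counts that need not be whole (the expected count of each transcript), for 105129 transcripts with gene symbols. The study's methods name CLC Genomics Workbench for mapping and testing, while the program and settings that divided counts between transcripts are not given in the sources used here. Counts were summed per gene symbol and rounded. Groups followed the labels. Genes were kept by filterByExpr, scaled by TMM (factors from 0.763 in A8 to 1.20 in A25) and tested with edgeR 4.0.16 (glmQLFit and glmQLFTest, group as the only term) in R 4.3.3, with Benjamini-Hochberg adjustment over the 14851 genes or 41808 transcripts tested. A gene passed the threshold at an adjusted p of at most 0.05 and a fold change of at least 1.5, as in the study's methods. The SE is the log2 fold change divided by the square root of the F statistic. The scripts were tested on simulated data.

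Alternatives were RLE factors, total counts alone, DESeq2 1.42.0, edgeR's likelihood ratio test, limma 3.58.1 (voom with quality weights), other filters (none, or at least 10 counts in every library), a covariate of muscle marker level, the transcript with the highest count, other thresholds and libraries left out. The fit without A7, A8 and A31 was chosen after seeing the data. It leaves 1 control, which is assumed to vary like the other libraries.

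TPM used GENCODE M21 lengths for the 103635 of 105129 transcripts that matched. The genes named are the 10 regulators, *Elavl1*, *Ucp1*, in each pathway list those past the threshold and the 3 of lowest unadjusted p besides, *Gabpb1* with the other partners whose groups were apart, and the gene with the highest Pearson r to each regulator (log2 CPM, prior count 2). The regulators and all lists were chosen with earlier results of these data known. The library total sets the counting precision of each value.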

Additional observations from a re-analysis of the deposited data

Results flagged for a closer look

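Within the 5 libraries labelled *Adipo-HuR-/-*, 18 quantities (the regulators, *Elavl1*, *Ucp1*, the marker sums and the mitochondrial mRNA share) were searched for a library that stands apart by Dixon's gap ratio, with a critical value of 0.71. Chance marks about 1 in 20 such groups.

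*Tfam* in A25, at 40.9 CPM, was below the other 4 libraries, the next lowest being at 49.6 CPM, with a gap ratio of 0.78. A25 is the shallowest library and has the highest TMM factor. By TPM, without TMM factors, *Tfam* in A25 was the highest of the 5, at 39.3 against 30.2 to 38.0, so its low position depends on the scale.

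The summed skeletal muscle markers in A31, at 379 CPM, were above the other 4, the next highest being at 43.6 CPM, with a gap ratio of 0.939. Without A31 the log2 fold change of *Nrf1* was 0.78 and that of *Polrmt* 0.48.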

How the results depend on the processing

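Of the 10 regulators, *Pprc1*, *Nrf1*, *Esrra*, *Tfam* and *Polrmt* kept a log2 fold change above 0 under all 19 alternatives, libraries left out included. *Nrf1* ran from 0.64 (transcript with the highest count) to 1.05 (total counts alone) and *Polrmt* from 0.36 to 0.72. Total counts alone turned *Ppargc1a* to 0.0575, *Tfb1m* to 0.14 and *Tfb2m* to 0.0401, and the transcript with the highest count turned *Ppargc1a* to 0.26. With each library left out in turn, *Ppargc1a* ran from -0.44 to 0.74, *Ppargc1b* from -0.26 to 0.92, *Gabpa* from -0.40 to 0.0135 and *Tfb1m* from -0.21 to 0.0402. The causes were not tested.

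The number of regulators past the threshold was 1 (*Nrf1*) with DESeq2, with the likelihood ratio test and with an adjusted p of at most 0.10 and no fold limit, and 0 elsewhere. The number of genes past the threshold was 823 with DESeq2, 655 with the likelihood ratio test and 492 at the looser threshold. It was 15 with the muscle covariate, 16 with the transcript of highest count, 5 without A24 and A25, 4 without A7, A8 and A31, and 10 to 190 with each library left out in turn. Fewer libraries were tested in the last 3 of these. *Elavl1* stayed between 0.11 and 0.46. Transcripts were fitted with the main settings, the filter of at least 10 counts, total counts alone and libraries left out. No transcript of the regulators passed in those fits, and the other alternatives were not run per transcript. No paired analysis was possible because the labels give the libraries no shared replicate numbers. The lowest counts of *Tfb1m*, *Nrf1* and *Pprc1* were 116, 206 and 234, in the shallow libraries A24 and A25. Without both libraries the log2 fold changes of these genes were -0.07 (SE 0.20), 0.79 (SE 0.18) and 0.39 (SE 0.25). With all libraries they were -0.10 (SE 0.20), 0.83 (SE 0.17) and 0.41 (SE 0.21).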
